A study of Mus musculus with 4 samples.

Results

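The p53 pathway was examined in mouse embryonic fibroblasts that lack BAX and BAK through 7 genes: the p53 relatives Trp63 and Trp73, the p53 inhibitors Mdm2 and Mdm4, the phosphatase gene Ppm1d, the cyclin gene Ccng1 and the p53 cofactor gene Trp53inp1. They were chosen by name and make up 7 of the 19938 genes that the array annotation names. Each is measured by 1 probe set that the annotation ties to that gene alone. The 4 samples were p63-transduced cells treated with etoposide, p63-transduced cells that were mock-treated, GFP-transduced cells treated with etoposide, and GFP-transduced cells that were mock-treated, with 1 array per condition. All cells came from embryos of C57BL/6 background at E13.5, were double knockout for BAX and BAK (the proteins that open the outer mitochondrial membrane in apoptosis), had been transformed with SV40 and carried a retrovirus. The large T antigen of SV40 binds and inactivates p53, a background that all 4 samples share. Etoposide traps topoisomerase II on broken DNA and was given for 6 h. The treatment protocol states its dose as 10 µg/mL, while the sample characteristics state 10 µg per microlitre. Which isoform and species of p63 the virus carried, and from which promoter, is not stated in the labels.

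Values are log2 RMA signals, in which a difference of 1 is a 2-fold change. No condition was replicated, so there is no error on any value and no test was made. The words higher and lower are used as calls for differences of at least 1 in size between a pair of arrays, and other differences are given as values. The brightness filter stood at 5.87, the median of all values of probe sets with 1 gene name, and 10698 genes reached it on at least 1 array. All 7 genes were among these, but Trp63 and Trp73 read below it in both GFP samples. One array, that from p63 cells without drug, stood apart more than the rest: for 78 genes its signal was at least 1 away from all others, which were themselves within a range of 0.5, and the same held for 1 to 22 genes on each of the other 3 arrays. None of the 7 genes was among the 78, but none could be, because for each of them the other 3 arrays spanned more than 0.5. Their absence therefore does not show that this array left them unaffected. Of 8 fibroblast markers, 6 were above the filter on all arrays, and Thy1 and Lum were below it on all. Of 7 epithelial markers, 3 were above the filter in p63 cells and 1, Krt8, in GFP cells. Epcam and Cdh1, of epithelium, and all 4 endothelial markers were below it on all arrays. The basal keratin genes Krt5 and Krt14 were above it in p63 cells alone. Of 5 haematopoietic markers, Ptprc, Lyz2 and Tyrobp were below it on all arrays. Cd68 was above it on all arrays but that of mock-treated p63 cells, and Cd14 was above it in the etoposide-treated cells of both lines.

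The p53 family consists of transcription factors that bind a shared DNA element. After DNA damage p53 accumulates and raises genes that arrest the cell cycle, repair DNA or kill the cell, together with genes that end the response. Mdm2 is a ubiquitin ligase that marks p53 for degradation, and Mdm4 is its partner, which blocks p53 transactivation. Ppm1d encodes WIP1, a phosphatase that removes activating phosphates from p53 and from the damage kinases. Ccng1 encodes cyclin G1, which recruits the phosphatase PP2A to Mdm2. Trp53inp1 encodes a nuclear protein that favours phosphorylation of p53 and also takes part in autophagy. p63 is the family member required for stratified epithelium, and p73 acts in neural and ciliated cell development.

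The DNA element of the family is a pair of half-sites of 10 bases each. RefSeq promoter windows (GRCm38.p6), which run from 250 bases before to 50 bases after a start site, were matched to 5 of the 7 genes, with 7 windows in all. They were searched for the p53 half-site, a motif that reads the same on both strands, and for directly adjacent pairs of half-sites. A half-site without mismatch was found in 3 of the 7 windows, those of Mdm2, Ccng1 and Ppm1d, and in 8.36% of 32851 windows of this length in the genome. The 4 windows below are the 3 with such a half-site and the Trp73 window whose best adjacent pair had 2 mismatches. Capitals mark the half-site in the windows of Mdm2 and Ppm1d, and the 20 bases of the best adjacent pair in those of Ccng1 and Trp73. Each runs 5′ to 3′ on the strand of the gene.
Ccng1, chr11:40755237-40755536, minus strand: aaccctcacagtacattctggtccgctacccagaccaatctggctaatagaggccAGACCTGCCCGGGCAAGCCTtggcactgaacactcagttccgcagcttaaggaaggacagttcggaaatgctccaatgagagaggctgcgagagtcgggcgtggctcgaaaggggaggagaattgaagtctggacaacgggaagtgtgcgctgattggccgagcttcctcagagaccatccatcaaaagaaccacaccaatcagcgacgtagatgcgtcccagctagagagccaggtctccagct
Mdm2, chr10:117710709-117711008, minus strand: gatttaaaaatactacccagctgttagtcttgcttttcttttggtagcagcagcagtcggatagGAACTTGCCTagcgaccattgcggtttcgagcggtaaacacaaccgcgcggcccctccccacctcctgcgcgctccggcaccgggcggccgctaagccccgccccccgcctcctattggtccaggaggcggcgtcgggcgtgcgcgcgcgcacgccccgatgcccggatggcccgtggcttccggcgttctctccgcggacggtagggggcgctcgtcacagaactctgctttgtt
Ppm1d, chr11:85311004-85311303, plus strand: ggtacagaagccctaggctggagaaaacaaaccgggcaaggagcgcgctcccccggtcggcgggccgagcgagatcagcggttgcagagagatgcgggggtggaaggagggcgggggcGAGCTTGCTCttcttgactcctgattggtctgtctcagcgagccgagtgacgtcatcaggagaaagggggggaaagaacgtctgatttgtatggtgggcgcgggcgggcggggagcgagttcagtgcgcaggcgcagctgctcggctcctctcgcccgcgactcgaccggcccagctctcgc
Trp73, chr4:154097124-154097423, minus strand: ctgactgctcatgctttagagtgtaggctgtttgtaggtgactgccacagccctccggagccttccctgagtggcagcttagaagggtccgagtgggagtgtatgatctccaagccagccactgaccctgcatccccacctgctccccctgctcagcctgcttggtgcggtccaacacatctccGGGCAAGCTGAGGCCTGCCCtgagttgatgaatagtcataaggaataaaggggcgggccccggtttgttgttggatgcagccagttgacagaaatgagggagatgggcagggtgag
The pair in the Ccng1 window, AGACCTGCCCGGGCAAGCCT, began 195 bases before the start site and had 1 mismatch to the pair of half-sites. Such a pair, with at most 1 mismatch, was found in 0.0883% of windows. The Trp73 window shown lies at a start site inside the gene and held the pair GGGCAAGCTGAGGCCTGCCC, 66 bases before that start, with 2 mismatches. A pair with at most 2 mismatches was found in 0.798% of windows. The half-site of Mdm2 began 186 bases before the start and that of Ppm1d 132 bases before it. The best adjacent pairs in these windows were poor, with 5 mismatches for Mdm2 and 4 for Ppm1d. A window of Mdm4 that is not shown had a closer pair, with 3 mismatches. In mouse Mdm2 the promoter known to answer p53 lies in an intron, outside this window. Both windows of Mdm4 and both windows of Trp73 held no half-site without mismatch. A match describes the letters of a window and does not show that a factor binds there.

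Etoposide was compared with mock treatment to see how the pathway responds to DNA damage. Mdm2, Trp53inp1, Ppm1d and Ccng1 were higher after etoposide in both lines, Mdm4 reached the threshold in p63 cells and not in GFP cells, and neither Trp63 nor Trp73 reached it in either line. In p63 cells 5 of the 7 genes were called higher, where 6.28% of the 10698 genes were so called. In GFP cells 4 of the 7 were called higher, where 3.52% of all genes were. The 4 genes called in both lines compare with 2.57% of all genes called higher in both. None of the 7 was called lower, against 1.33% of all genes in p63 cells and 2.12% in GFP cells. The split of all genes depended on scaling: 672 were higher and 142 lower in p63 cells as deposited, against 405 and 271 with arrays centred on the genes kept, and in GFP cells 377 and 227 became 467 and 164. The median difference of the 7 genes was 1.43 in p63 cells and 1.14 in GFP cells, against 0.10 and -0.08 for all genes tested. The genes were picked as parts of the p53 pathway with earlier results of these arrays known, so these counts are a description. In bulk cultures a change in the share of cells that express a gene and a change in RNA per cell cannot be told apart.

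**Figure D1:**
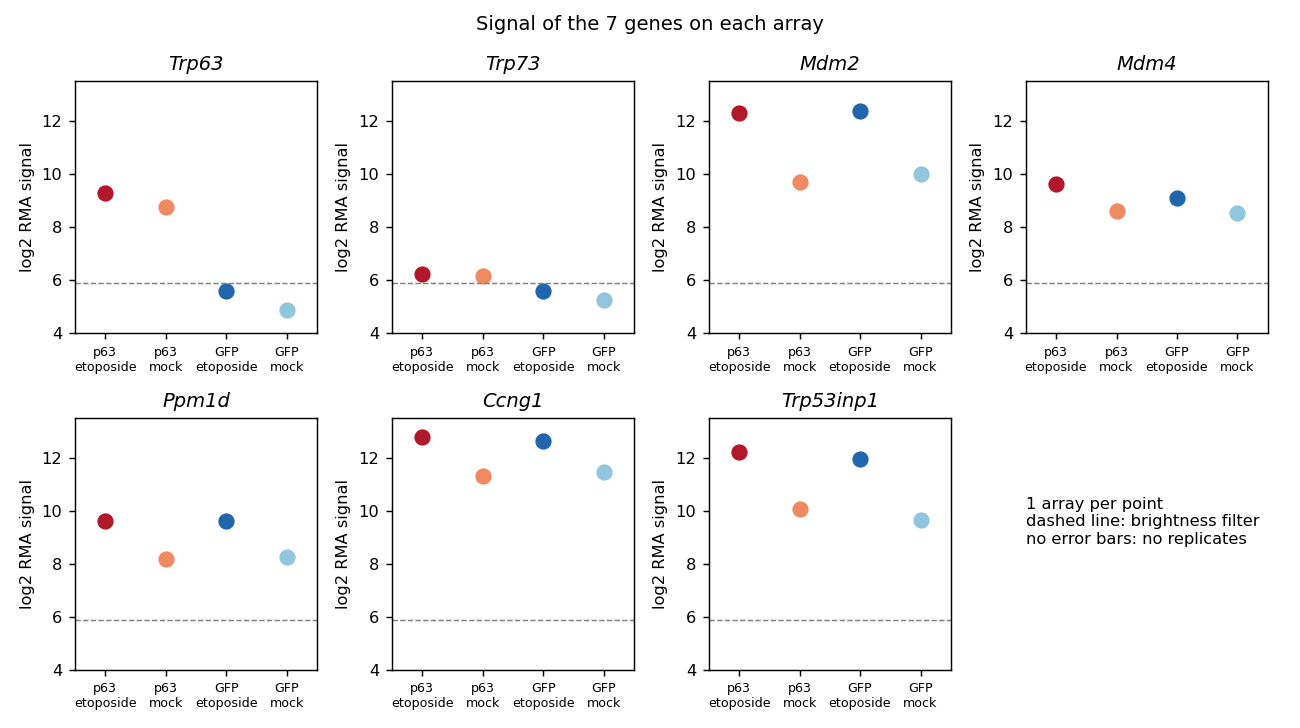
Log2 RMA signal (y axis) of each of the 7 genes on the 4 arrays (x axis), 1 point per array, with the brightness filter of 5.87 as a dashed line. Mdm2, Trp53inp1, Ppm1d and Ccng1 are high in both etoposide-treated samples, Trp63 is high in both p63 samples, and Trp73 lies near the filter throughout.

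Among the inhibitors, Mdm2 had a signal of 12.29 in etoposide-treated and 9.71 in mock-treated p63 cells. In GFP cells it had 12.39 after etoposide and 9.99 after mock treatment. In each line the treated sample read above the untreated one, and the lines lay close together under each treatment. The difference of 2.59 in p63 cells, or 6.01-fold, was the 16th highest of the 10698 genes, and that of 2.40 in GFP cells, or 5.28-fold, was the 14th highest. Mdm4 had a signal of 9.62 in etoposide-treated and 8.61 in mock-treated p63 cells. In GFP cells it had 9.11 after etoposide and 8.53 after mock treatment. Its signal was thus highest in p63 cells with etoposide, and the mock-treated samples of the lines were nearly equal. The Mdm4 difference was 1.01 in p63 cells and 0.58 in GFP cells, or 2.01-fold and 1.49-fold. The call in p63 cells was lost when arrays were normalised by cyclic loess (0.91) or centred on the medians of the genes kept (0.81), and in GFP cells 19.2% of genes differed by at least as much as Mdm4.

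Ppm1d, the WIP1 gene, read 9.61 in etoposide-treated and 8.17 in mock-treated p63 cells. In GFP cells it read 9.62 after etoposide and 8.26 after mock treatment. Both lines therefore held nearly the same signal under each treatment, and in each the treated sample read above the untreated one. The difference was 1.43 in p63 cells and 1.36 in GFP cells, or 2.70-fold and 2.58-fold, and ranked 240th and 166th from the highest. Ccng1 had a signal of 12.77 in etoposide-treated and 11.32 in mock-treated p63 cells. In GFP cells it had 12.61 after etoposide and 11.47 after mock treatment. The Ccng1 difference was 1.45 in p63 cells and 1.14 in GFP cells, or 2.72-fold and 2.20-fold, ranked 236th and 297th. Among the 5 genes with a promoter window, Ccng1 had the closest pair of half-sites. Its difference was smaller than that of Mdm2 in both lines, and a link between such pairs and the differences was not tested. Trp53inp1, the p53 cofactor gene, read 12.21 in etoposide-treated and 10.07 in mock-treated p63 cells. In GFP cells it read 11.95 after etoposide and 9.65 after mock treatment. Its difference of 2.14 in p63 cells and 2.29 in GFP cells, or 4.40-fold and 4.90-fold, ranked 44th and 20th, the second of the 7 genes in either line.

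Trp73 was dim on all arrays. It had a signal of 6.24 in etoposide-treated and 6.16 in mock-treated p63 cells. In GFP cells, at 5.59 after etoposide and 5.24 after mock treatment, it was below the filter. The etoposide difference was 0.08 in p63 cells, where 84.6% of genes differed by at least as much, and 0.36 in GFP cells, where 40.1% did. In p63 cells its sign turned with arrays centred on the medians of the genes kept (-0.12), and in GFP cells the difference was 0.00 once dim readings were set to the filter. The window of its internal start is the one shown above with a pair of half-sites. Trp63 read 9.29 in etoposide-treated and 8.75 in mock-treated p63 cells, a difference of 0.54. In GFP cells it read 5.59 after etoposide and 4.87 after mock treatment, and the difference of 0.71 lay wholly below the filter. Of 5 haematopoietic markers, Cd14 stood 2.03 above mock treatment in p63 cells and 1.70 in GFP cells, and Cd68 1.68 and 0.72. These differences rest partly on dim mock readings below the filter, for Cd14 4.79 in p63 and 5.58 in GFP cells, and for Cd68 5.20 in p63 cells. The 3 other haematopoietic markers, Ptprc, Lyz2 and Tyrobp, were below the filter on all arrays. Their part in the etoposide differences was not tested.

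**Figure D2:**
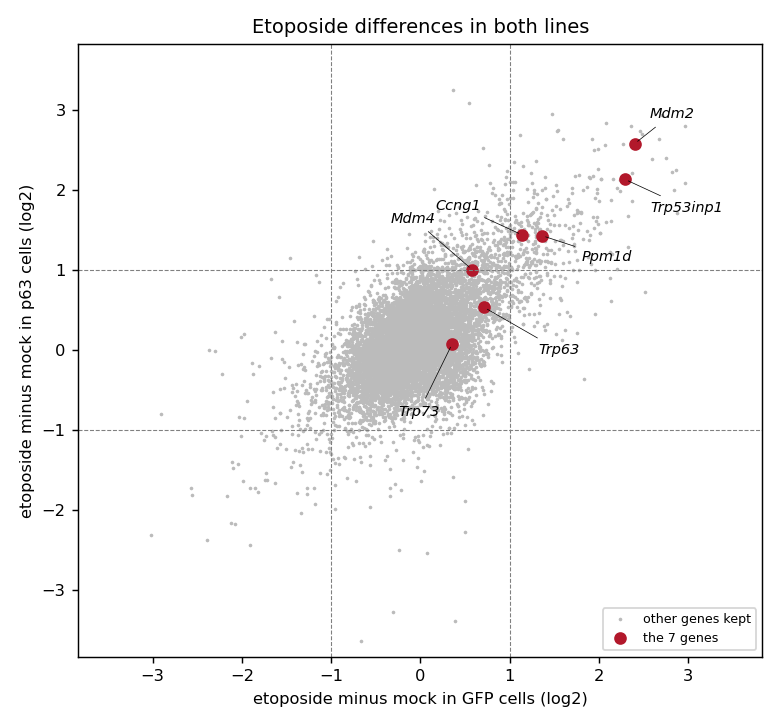
Etoposide minus mock difference (log2) in p63 cells (y axis) against GFP cells (x axis) for the 10698 genes kept, with the 7 genes in red and dashed lines at 1 and -1. Mdm2 and Trp53inp1 lie at the upper right edge of the cloud, Ppm1d and Ccng1 just past both thresholds, Mdm4 on the threshold of p63 cells, and Trp63 and Trp73 inside it.

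Among the 7 genes, some patterns over the 4 arrays lay close together. Distances were taken between profiles centred on each gene's own mean, in log2 units over the 4 arrays. Ppm1d and Ccng1 were nearest, at 0.17. Mdm2 lay nearest to Trp53inp1, at 0.62, and was 1.77 from its partner gene Mdm4. Trp63 was the most distant, at 3.03 from Trp73 and 4.40 from Mdm2. By the same measure over all genes kept, Mdm2 was most like Ddit4l, a relative of an mTORC1 inhibitor (0.12), Apobec1, a cytidine deaminase gene (0.22), and Eda2r, a TNF receptor family gene (0.25). Trp53inp1 was most like Prrg4 (0.08), Mybl1, a MYB family factor (0.13), and Pmaip1, which encodes NOXA (0.14). Ppm1d was nearest to Fam13c (0.064), Fbxw7, the substrate receptor of a ubiquitin ligase (0.065), and Kcnj4, a potassium channel gene (0.071). Ccng1 was nearest to Pdrg1 (0.066), Tmem63b (0.10) and Yipf3 (0.11). Mdm4 was nearest to Cx3cl1, a chemokine gene (0.071), Scap, a cofactor of sterol regulation (0.076), and Pcyox1 (0.080). Trp73 was nearest to Tmem50b (0.082), Hr (0.11) and Fzd6, a Wnt receptor gene (0.12). Trp63 was nearest to Krt19 (0.53), Krt16 (0.61) and Dsp, the desmoplakin gene (0.71), which lay farther from it than the neighbours of the other 6 genes did from them. Of these, Krt16, Dsp, Hr and Kcnj4 were under the filter in some cells. With 4 arrays, such nearness describes these samples and no more.

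Comparison of p63 with GFP cells asks what the p63 virus altered in the pathway. Trp63 itself was higher in p63 cells whether or not etoposide was given, and no other gene of the 7 reached the threshold under either. That is 1 of 7 genes called higher in etoposide-treated cells, where 1.38% of all genes were, and 1 of 7 in mock-treated cells, where 2.42% were. Calls in the higher direction under both treatments were made for 1 of 7, against 0.925% of all genes. Calls in the lower direction numbered 0 of 7 in both, against 0.514% and 3.76% of all genes. The 1 gene called higher is Trp63, the gene that the p63 virus carries, so its call follows from the design. It passed the filter through the p63 samples alone, and its count is no result about the pathway. In mock-treated cells the split of all genes turned with scaling, with 259 higher and 402 lower as deposited, 200 and 638 with arrays centred on all probe sets, 319 and 276 after cyclic loess, and 422 and 198 with arrays centred on the genes kept. The lines are a single pair, so p63 and any other difference between them cannot be told apart. The Trp63 difference was 3.70 in etoposide-treated and 3.88 in mock-treated cells, the 5th and the 10th highest of all genes. Because the GFP readings were below the filter, the signal was at least 10.7-fold higher in etoposide-treated and at least 7.36-fold higher in mock-treated p63 cells, with those readings raised to the filter. The Trp63 probe set is annotated with 8 curated RefSeq transcripts, so it gives no reading by isoform.

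Trp73 was the next highest of the 7, with differences of 0.64 in etoposide-treated and 0.92 in mock-treated cells. With the dim GFP readings raised to the filter the differences were 0.37 and 0.29. In mock-treated cells the difference passed the threshold, at 1.13, with arrays centred on the medians of the genes kept. Trp53inp1 was 0.26 and 0.41 above GFP cells in etoposide-treated and mock-treated cells, and Mdm4 0.51 and 0.08. Mdm2, at -0.10 and -0.28, read below GFP cells under both treatments. Ppm1d differed by -0.02 and -0.09, and Ccng1 by 0.16 and -0.15. In mock-treated cells the sign of the Mdm4, Ppm1d and Ccng1 differences turned under at least 1 other scaling of the arrays, with ranges of -0.05 to 0.29, -0.21 to 0.13 and -0.28 to 0.06. The Ppm1d differences lay inside the bulk of all genes: 85.2% of genes differed by at least as much in mock-treated cells and 94.3% in etoposide-treated cells. For Mdm4 the share was 86.3% in mock-treated cells but 9.24% in etoposide-treated cells. For Trp53inp1 it was 37.9% and 32.7%. In mock-treated cells the Trp53inp1 difference was 0.63 with arrays centred on the genes kept and 0.29 with arrays centred on all probe sets.

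**Figure D3:**
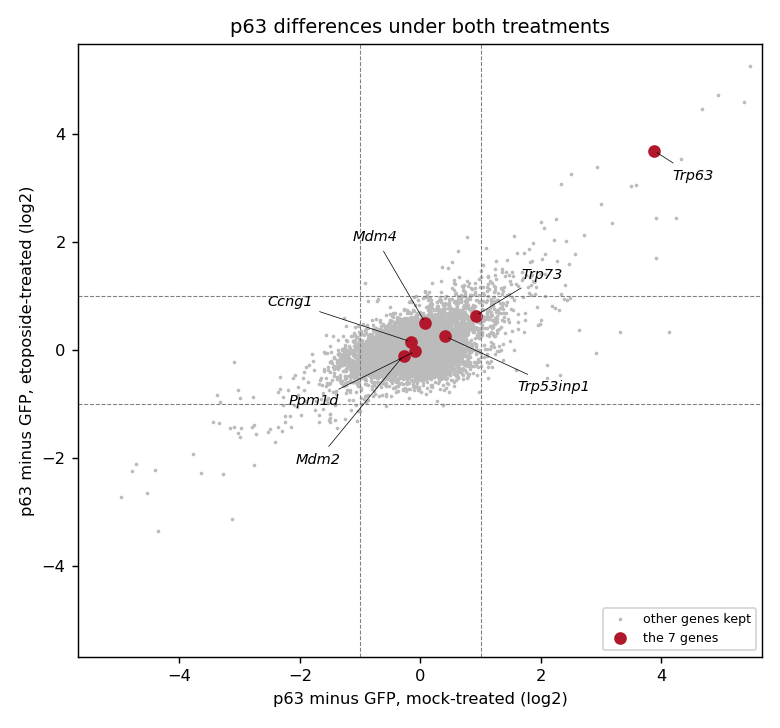
Difference between p63 and GFP cells (log2) in etoposide-treated cells (y axis) against mock-treated cells (x axis) for the 10698 genes kept, with the 7 genes in red and dashed lines at 1 and -1. Trp63 stands apart at 3.70 and 3.88, and Trp73 lies short of both thresholds. The other 5 genes lie nearer 0, though Mdm4, at 0.51 in etoposide-treated cells, is above 93.4% of genes.

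The difference of differences, p63 cells minus GFP cells, was under 1 in size for each of the 7 genes, where 2.84% of all genes were called higher and 1.09% lower as deposited, which is 304 and 117 genes. That balance reversed, to 83 higher and 387 lower, with arrays centred on the genes kept, and stood at 192 and 118 after cyclic loess and 561 and 74 with arrays centred on all probe sets. The values were 0.43 for Mdm4, 0.31 for Ccng1, 0.18 for Mdm2, 0.07 for Ppm1d, -0.15 for Trp53inp1, -0.18 for Trp63 and -0.27 for Trp73. Their median of 0.07 compares with 0.20 for all genes tested. As deposited, the feedback genes thus differed between lines by less than 0.5 in their etoposide difference. A value at least as large as that of Mdm4 was held by 36.1% of genes. The Mdm4 value was 0.57 with arrays centred on all probe sets and 0.14 with arrays centred on the genes kept. Centring arrays on the medians of the genes kept, which moved the median of all genes to -0.11, turned the sign for Mdm2 (-0.11) and Ppm1d (-0.23), and cyclic loess did so for Ppm1d (-0.16). With dim readings raised to the filter the values for Trp63 and Trp73 were 0.54 and 0.08.

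**Figure D4:**
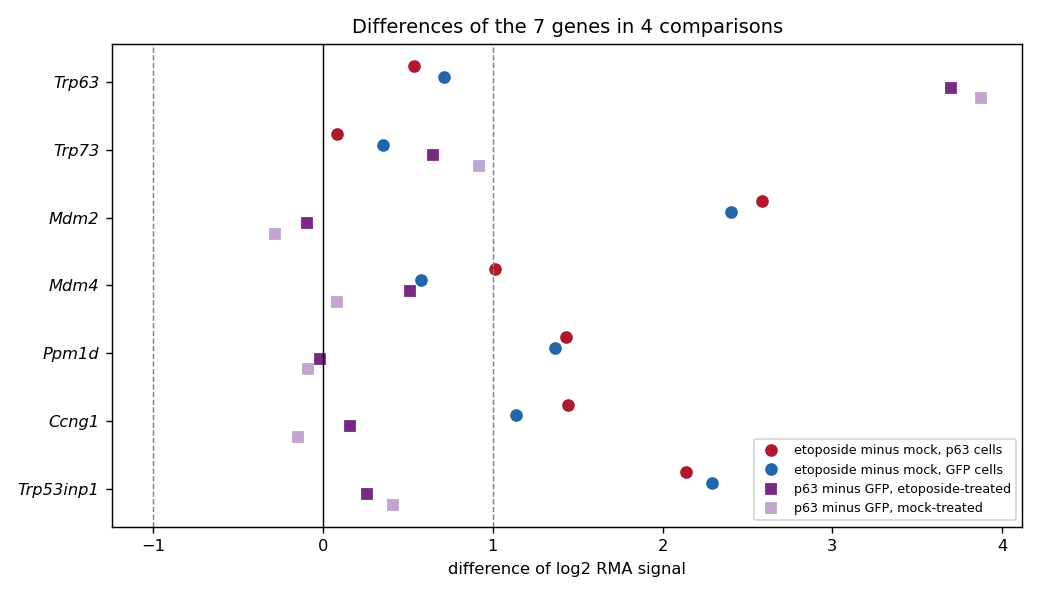
Differences of log2 signal (x axis) of the 7 genes (y axis) for etoposide minus mock in each line (circles) and p63 minus GFP under each treatment (squares), with dashed lines at 1 and -1. Circles and squares separate for Mdm2, Trp53inp1, Ppm1d and Ccng1, whose squares lie near 0, and Trp63 shows the reverse.

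Lists of pathway genes around the 7 were examined in the same way. Of 41 other p53 target genes that reached the filter, 28 were higher after etoposide in p63 cells, 23 in GFP cells and 21 in both, and 0 were lower in either. Of all genes kept, 6.28% were higher in p63 cells, 3.52% in GFP cells and 2.57% in both. The list's median was 1.25 in p63 cells and 1.26 in GFP cells, beside 0.10 and -0.08 for all genes tested. Btg2, an antiproliferative gene, stood at 2.41 in p63 cells and 2.75 in GFP cells, and Fas, a death receptor gene, at 2.39 and 2.59. Eda2r stood at 2.57 and 2.06, Pmaip1 at 2.14 and 2.15, Cd80, a costimulatory ligand gene, at 2.27 and 1.99, and Dcxr, a xylulose reductase gene, at 1.89 and 2.14. The Mdm2 difference in p63 cells was larger than that of each of these 6, and in GFP cells Btg2 and Fas were larger. By virus, 2 of the 41 targets were higher in etoposide-treated p63 cells, and 4 were higher and 3 lower in mock-treated p63 cells, with list medians of 0.14 and -0.19. Of all genes, 1.38% were higher in etoposide-treated p63 cells, and 2.42% were higher and 3.76% lower in mock-treated p63 cells. Perp, a desmosome gene that p53 and p63 both activate, was higher in p63 than in GFP cells by 2.45 after etoposide and by 4.23 after mock treatment. It was the single target called in both of these comparisons, and its etoposide difference was 0.73 in p63 cells and 2.51 in GFP cells.

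Most genes that act on p53 at other steps were not called, as was true of most genes on the array. After etoposide 6.28% of all genes kept were higher in p63 cells and 3.52% in GFP cells. Of 25 regulators of p53 stability and activity, 2 were higher after etoposide in p63 cells and 0 in GFP cells, with medians of -0.04 and -0.21. They were Ppp1r13l, which encodes the p53 inhibitor iASPP, at 1.499 in p63 cells and 0.99 in GFP cells, and Rchy1, a ubiquitin ligase for p53, at 1.29 and 0.64. By virus, the list had 0 calls in either comparison. Siah1a, a ubiquitin ligase gene, stood at 0.24 in etoposide-treated and 0.74 in mock-treated cells, and Daxx at -0.20 and -0.76. Of 12 regulators of p63 and p73, 3 were higher after etoposide in p63 cells and 2 in GFP cells, with medians of 0.16 and -0.08. Fbxw7 was at 1.52 in p63 cells and 1.34 in GFP cells, and Wwp1, a ubiquitin ligase that acts on p63, at 1.68 and 1.054. Pml, the scaffold gene of nuclear bodies, was at 2.25 and 0.97. By virus, Pml stood at -0.20 in etoposide-treated and -1.48 in mock-treated cells, and Stxbp4, which stabilises p63 protein, at -0.03 and -0.89.

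The damage kinases that act upstream had 0 of 12 genes called in any comparison, with etoposide medians of 0.07 in p63 cells and -0.14 in GFP cells. Over all genes, 0.514% to 6.28% were called in either direction of a comparison, so 0 calls in a list this short says little. Chek2, a checkpoint kinase that phosphorylates p53, stood at 0.81 in p63 cells and 0.77 in GFP cells, and Atrip, the partner of ATR, at 0.69 and 0.06. By virus, Atmin, a cofactor of ATM, was at -0.58 in etoposide-treated and -0.73 in mock-treated cells, and Hipk2 at -0.04 and -0.87. Relatives and partners of the 7 genes, such as other PPM phosphatases and PP2A subunits, also had 0 of 13 called in any comparison. Their etoposide medians were 0.04 in p63 cells and -0.25 in GFP cells. Ppm1a, a relative of Ppm1d, stood at 0.59 and 0.62, against 1.43 and 1.36 for Ppm1d itself, and Ppp2r2a, a PP2A subunit gene, at -0.25 and -0.62. Ccng2, the paralogue of Ccng1, stood 0.61 above GFP cells in etoposide-treated and 0.77 above them in mock-treated p63 cells, and Trp53inp2, the paralogue of Trp53inp1, 0.47 and 0.61. After etoposide Ccng2 stood at -0.34 in p63 cells and -0.18 in GFP cells, and Trp53inp2 at 0.29 and 0.43, so neither paralogue was called where Ccng1 and Trp53inp1 were. Trp53inp2 read below the filter in mock-treated GFP cells, and with that reading raised to it stood at 0.20 for etoposide in GFP cells and at 0.38 for p63 in mock-treated cells.

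**Figure D5:**
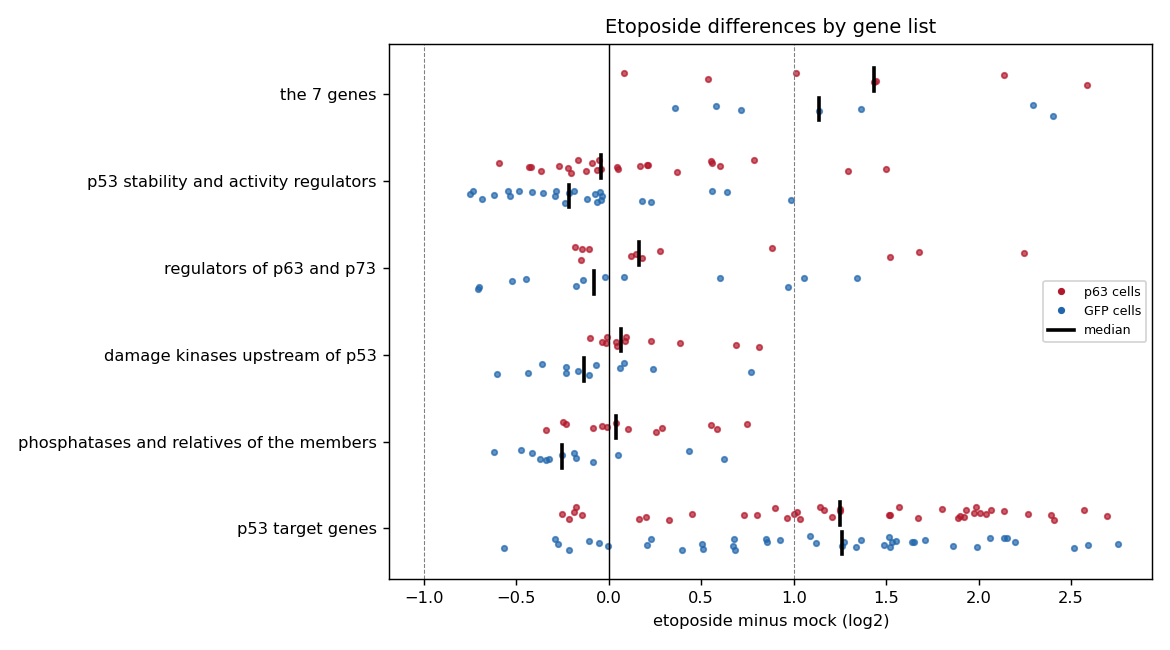
Etoposide minus mock difference (log2, x axis) of single genes in p63 cells and GFP cells for the 7 genes and 5 lists of other pathway genes (y axis), with black bars at medians and dashed lines at 1 and -1. The 7 genes and the p53 target list have medians above 1 in both lines, and the medians of the other 4 lists lie between -0.25 and 0.16.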

How the data were processed

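Total RNA from 4 samples was amplified and labelled by a NuGEN kit made for small inputs and put on Affymetrix Mouse Gene 1.0 ST arrays, per the labels' protocols and design text. Per the submitters' processing notes, the deposited values are log2 RMA signals that the authors made in Affymetrix Expression Console, with no version stated in the sources used here. The base of the logarithm was read from their span of 1.27 to 14.4. RMA brings the arrays' distributions close together, which takes out most of a shift common to all genes. In the deposited values they were not equal. The medians over all probe sets ran from 5.46 in mock-treated GFP cells to 5.59 in mock-treated p63 cells. Over the genes kept, the medians of these samples were 7.69 and 7.48. There are no counts behind an array value, and 1 array per group limits the precision.

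Of 35512 probe sets, 21789 had 1 gene symbol in an annotation of 2016, 1621 had several, and 12102 were unnamed here. Symbols were updated by Entrez identifier against RefSeq for 21698. The brightest probe set by mean represented a gene. Groups followed the sample titles. With 1 array per group no test was possible, and differences of log2 values were taken and called at 1. The 7 genes and the lists were chosen with earlier results of these data known. The genes named were the 7, the list genes called in both comparisons of an effect (up to 6, or else the 2 with the largest mean difference), and the 3 nearest patterns of each of the 7. The code that makes the calls was checked on simulated data with known shifts, which says nothing of the error of these arrays. Alternatives were other filters, thresholds, scalings (cyclic loess in limma 3.58.1) and probe set rules. Computation used Python 3.11.15 and pandas 2.3.3.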

Additional observations from a re-analysis of the deposited data

Results flagged for a closer look

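In the values as deposited, Ccng1 differed between p63 and GFP cells in opposite directions under the treatments, by 0.157 in etoposide-treated cells and by -0.150 in mock-treated cells. The difference between these values was not tested, since each rests on 1 array per condition. In size they were matched or exceeded by 53.03% and 74.4% of all genes. The opposite signs depended on scaling. With arrays centred on the medians of the genes kept both values were positive, at 0.076 and 0.063. After cyclic loess they were 0.172 and -0.008.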

How the results depend on the processing

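Of 275 recomputed differences of the 7 genes, 269 kept their call, 6 changed it (Mdm4 under 2 scalings, and Trp63 and Trp73 where they came to pass a threshold) and 0 of the called ones reversed. A called difference is at least 1 in size and no scaling moved one by that much, so the 0 reversals say little. The settings covered filters, thresholds, scalings, raised dim readings and probe set rules. Centring on the medians of the genes kept was chosen after seeing the data. Each of the 7 genes has 1 probe set, so the probe set rule and the filters could not change its differences. Those recomputed differences agree by construction. Counts over the 7 genes were likewise fixed under the probe set rule and without a filter. Of 80 recomputed counts over the 7 genes and the pathway lists, 69 stayed within 1.5 times. The exceptions were as follows. With a 1.5-fold threshold, 2 of the 7 genes were called between p63 and GFP cells under either treatment, against 1. The pathway lists then had 45 calls after etoposide in GFP cells (against 25), 6 between lines in etoposide-treated cells (against 2), 28 in mock-treated cells (against 8) and 30 for the difference of differences (against 7). Cyclic loess and centring on the genes kept each left 1 list gene called between lines in etoposide-treated cells, and centring on the genes kept called 2 of the 7 genes in mock-treated cells. A filter at the 75th percentile left 5 list genes in mock-treated cells, and centring on all probe sets gave 11 for the difference of differences. Calls over all genes for etoposide in p63 cells, etoposide in GFP cells, the lines after etoposide, the lines after mock and the difference of differences were 814, 604, 203, 661 and 421. They became 2354, 2007, 725, 2441 and 2312 with the 1.5-fold threshold and 535, 364, 120, 407 and 211 with the 75th percentile filter, and the last count became 784 with no filter and 635 with arrays centred on all probe sets. The cause was not tested. No paired analysis was possible because each group has 1 array. Dim readings limit Trp63 in GFP cells and Trp73 throughout.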

Other observations

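The promoter windows were also read across the other genes. Besides Ccng1, 4 genes that reached the filter had a window with an adjacent pair of half-sites at most 1 mismatch from the motif, and 2 of these were higher after etoposide in both lines. They were Gtse1, a regulator of p53 localisation that is also on the p53 target list, at 1.93 in p63 cells and 1.49 in GFP cells, and Calhm2 at 1.29 and 1.02. Rps27l, a ribosomal protein paralogue, stood at 1.06 and 0.43, and Mthfd1, a folate enzyme gene, at 0.50 and 0.51. These genes were named after their values were seen. With at most 2 mismatches there were 78 such genes apart from the 7, of which 9, or 11.5%, were higher in both lines, against 215 of 8608 genes with a window, or 2.50%. No test was made of this share.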
